A study of Mus musculus with 4 samples.

Results

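The genes described here are 9 receptors through which hormones, adipokines and a metabolite act on the liver: Gcgr, Adra1b, Avpr1a, Sucnr1, Adipor1, Adipor2, Lepr, Prlr and Thrb. They were chosen by name, and every probe that carried 1 of these gene names on the arrays was taken, which gave 20 probes of the 41037 tested and 9 of the 26582 gene names on the array. Of the 20 probes, 15 had signal on every array, meaning that the GALP or the control channel stood well above background there, and 5 were not above background in any of the 8 channels. The 15 measured probes covered 8 of the 9 genes, and Lepr was the gene without a measured probe.

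The RNA came from whole liver of male C57BL/6J mice, 8 weeks old at purchase and made obese with a high-fat diet for 14 weeks (diet-induced obese, DIO, at least 40 g). The mice received porcine galanin-like peptide (GALP, a neuropeptide of the hypothalamus; 1 nmol) in 2 µL by the nose once daily for 11 days, or saline. GALP-treated mice were split by weight loss, and RNA was pooled from 4 that had lost more (greater loss pool) and from 4 that had lost less (less loss pool). Each pool was set against the pool of 8 saline-treated mice on 2 dual-colour Agilent arrays with exchanged dyes. Both arrays of a pool used the same RNA, so values are mean ± SD of n = 2 GALP pools, and the control pool counts as 1 sample whose own spread is in no test. All mice ate the high-fat diet. The GALP was dissolved with 5% α-cyclodextrin, whereas the labels name saline for the controls, so the peptide and this carrier cannot be told apart by the labels. The GALP pools were sorted by weight loss, an outcome of the treatment.

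As background, the glucagon receptor (Gcgr) raises cAMP in hepatocytes and drives glucose output, whereas the α1B-adrenergic receptor (Adra1b) and the vasopressin V1a receptor (Avpr1a) couple to phospholipase C and calcium and drive glycogen breakdown. Sucnr1 is a G protein-coupled receptor for succinate, and the adiponectin receptors Adipor1 and Adipor2 are membrane proteins of the PAQR family linked to AMPK and PPARα. The leptin receptor (Lepr) and the prolactin receptor (Prlr) are cytokine receptors that signal through JAK2 and STAT proteins and occur as long and short forms, and Thrb is the main thyroid hormone receptor of hepatocytes, a nuclear receptor.

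A probe reports the stretch of transcript to which it binds, and the genes with several probes turn on where these lie. The first 30 bases of the 60-base probe are printed for the probes that carry the results, in the sense of the transcript, as the authors' files give them. Each is named by the base of the transcript that the files give for the probe. The files name no exon or UTR. Sucnr1 and Avpr1a, each with a single probe, lay at chr3:59891281-59891340 (plus strand) and chr10:121890135-121890194 (plus strand) of mm9.
Sucnr1 base 1363: ctagttgcaaatgctgaatgcatttcatca
Avpr1a base 2296: cttagtacctagtcggtgaatccagattca
The pair of measured Adipor2 probes lay far apart on the same mRNA. The first spanned 2350 bases of the genome (chr6:119309501-119311850, minus strand) and thus an exon junction, and the second lay at chr6:119303222-119303281.
Adipor2 base 655: cctaggttgtgtattcttcctgtgcctggg
Adipor2 base 3894: atagaaggttggggttccagaaaggcatct
The Prlr probes differed in the transcripts they matched. The first (chr15:10255629-10255688, plus strand) was annotated to 3 RefSeq mRNAs, and those at chr15:10263009-10263068 and chr15:10266547-10266606 only to NM_011169.
Prlr base 1425: cttgaaagacacaactgtgtggatcattgt
Prlr base 6561: gactttccattctgaaaacaatgttgattc
Prlr base 10099: tctccatccactttgtagggacaacatgga
The Thrb probes with signal lay at chr14:18866221-18866280, chr14:18868800-18868859 and chr14:18869432-18869491 (plus strand).
Thrb base 1701: ggtgtcattgcattccacctgtagcattct
Thrb base 4280: aaatcattctcttctaatcttgtccagact
Thrb base 4912: gtcttacggtttttgagatgtagccagtgt
Both Lepr probes are shown because neither found signal. They lay at chr4:101461940-101463441 (spanning an exon junction) and chr4:101485484-101485543 on the plus strand and were annotated to different Lepr transcripts.
Lepr base 3013: agataattaatggtttcaccaaagatgcta
Lepr base 4251: agagagcaatgacttattccataattaatg

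The rule of the methods was applied strictly. The scanner software, Feature Extraction, gives each ratio a p-value that compares the RNAs on that array only, here called the array p. The paper gives the p threshold, the folds and the choice of changes shared by both GALP groups, and does not say that each array must pass. The rule as used here needs an array p below 0.01 on each of the 4 arrays. It also needs 1 direction throughout, and folds above 1.5 or below 0.75 for each pool. By this rule 0 receptor probes were called higher and 0 lower, beside 0.0585% and 0.132% of all probes tested. With limma on the 2 pool ratios, 0 of the 20 probes passed an adjusted p of 0.05, beside 0.0% of all probes, and the smallest adjusted p among them was 0.374. At an unadjusted p under 0.05, limma gave 5 receptor probes lower (6.6% of all probes) and 1 higher (4.99% of all probes), the latter a Lepr probe at background. In simulated ratios of 41037 probes this fit found 0 of the 200 probes given a log2 change of 3, so the count of 0 carries little information.

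Counts short of the strict rule lay on the lower side. Of the 15 probes with signal, 7 were lower and 0 higher on all 4 arrays, against 15.7% and 11.4% of the 15712 probes with signal. With 1 probe per gene, that of the highest mean signal, 4 of 8 receptors (Adra1b, Adipor2, Avpr1a and Sucnr1) were lower on all 4 arrays and 0 were higher, against 14.5% and 12.8% of 11370 genes. The median log2 ratio over the 8 receptors was -0.16, beside -0.01 over the 11370 genes. When an array p below 0.01 was needed on only 1 array per pool, 3 probes were called lower (Sucnr1, Adipor2 base 655 and Prlr base 10099) and 0 higher, against 1.02% and 0.312% of the probes with signal. With no array p needed, Avpr1a joined them, which made 4 of 15 lower and 0 higher against 1.62% and 0.369%. In 4 of the 15 probes (Sucnr1, Avpr1a and both measured Adipor2 probes) the 4 GALP signals all lay below the 4 control signals, against 2.5% of the probes with signal. All GALP signals lay above the control signals in 0 of the 15, against 2.48%. The genes were picked by name with results of these data known, so these counts are descriptions.

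**Figure D1:**
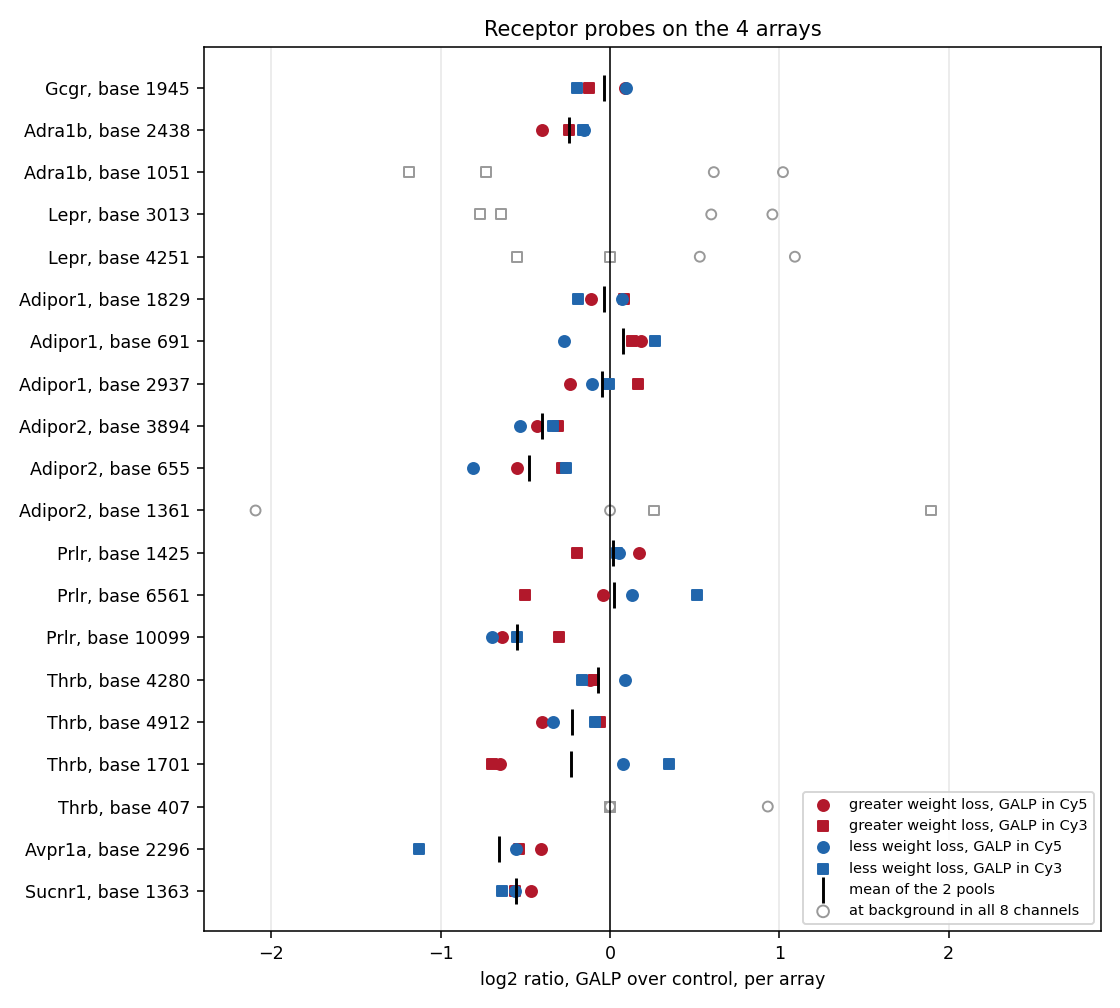
Log2 ratio of GALP over control on each of the 4 arrays for the 20 receptor probes, named by gene and transcript base. Filled symbols are probes with signal, coloured by pool and shaped by dye, black bars are the mean of the 2 pools, and open grey symbols are probes at background in all 8 channels. Sucnr1, Avpr1a and Adipor2 (bases 655 and 3894) sit left of 0 on every array, and the background probes of Lepr and Adra1b lie right of 0 with GALP in Cy5 and at or left of 0 with GALP in Cy3.

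Sucnr1, the succinate receptor, came closest to the rule. Its processed signal in the GALP channels was 6474 and 6017 in the greater loss pool and 7432 and 5715 in the less loss pool. The control signals on the same arrays were 8947, 8879, 10946 and 8911. Every GALP signal was below every control signal, and the 4 arrays were close to each other. The log2 ratios were -0.47 and -0.56 in the greater loss pool and -0.56 and -0.64 in the less loss pool. Their mean over the pools was -0.56 ± 0.06, a ratio of 0.680, and the fold was 0.700 in the first pool and 0.660 in the second. The array p was below 0.01 on 3 of the 4 arrays, so the gene missed the strict rule by a single array. The paper lists Sucnr1 among its genes with decreased expression, under cAMP signalling. The limma adjusted p was 0.374 over all probes and 0.131 over the 15712 probes with signal. It was 0.0477 with the 4 arrays as values and the pool as a random block, where 0.163% of all probes passed as lower and 0.095% as higher, and 0.0335 after normexp correction and loess, where 0.129% passed as lower and 0.102% as higher.

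Whole liver holds several cell types, and in such bulk RNA fewer cells of a type and less RNA per cell cannot be told apart. Over all genes with signal 14.5% were lower and 12.8% higher on all 4 arrays, and these shares stand beside each count below. The markers of hepatocytes (7 of 7 with signal) had a median log2 ratio of 0.05, with 1 gene lower and 3 higher on all 4 arrays. Their summed signal was 174227 to 253648 in the GALP channels and 167816 to 248709 in the control channels. Those of hepatic stellate cells (9 of 10 with signal) had a median of 0.18, with 0 lower and 4 higher, and sums of 24476 to 37098 in the GALP channels and 26964 to 34265 in the control channels. Those of Kupffer cells (7 of 7) had a median of 0.14, with 0 lower and 4 higher on all 4 arrays. Their sums were 23886 to 29096 in the GALP channels, all above the 21009 to 23594 of the control channels. Those of sinusoidal endothelial cells (8 of 8) had a median of 0.10, with 1 lower and 3 higher. Their sums were 24328 to 30495 in the GALP channels and 24349 to 33762 in the control channels. Each of the last pair of lists held 1 gene called higher by the rule. Bile duct markers (4 of 6 with signal, Epcam and Cftr at background) had a median of -0.12, with 1 lower and 0 higher. Of 6 lymphocyte markers 1 had signal, and it was higher on all 4 arrays. Adipocyte markers (4 of 6, Lep at background) had a median of 0.20, with 1 lower and 2 higher on all 4 arrays. Their sums of 19656 to 22975 in the GALP channels lay above the 11813 to 16921 of the control channels. Most of the sum was Cidec (mean log2 ratio 0.75 ± 0.01), so the sums mainly report that gene, while Cfd had -0.81 ± 0.11. Adipoq had 0.06 ± 0.45, with 0.38 in the greater loss pool and -0.26 in the less loss pool. Of the 7 stomach and pancreas genes with signal, 2 were called lower by the rule in both pools. They were Tff1, with pool means of -3.63 and -3.64 and 1 of 4 GALP channels above background, and Gkn2, above background in all control channels and in 0 GALP channels. The other 5 split the pools. The pancreatic lipase gene Pnlip had log2 ratios of -3.54 and -4.25 in the greater loss pool and 1.09 and 0.59 in the less loss pool, and the rest of the 5 had the same signs. The part of these shifts in the receptor values was not tested. Each array held 43379 spots, of which 40.5% to 46.7% were well above background in a channel, and none of the receptor probes was saturated.

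Avpr1a, the hepatic vasopressin receptor, had the largest mean log2 ratio in size among the receptors, from a dim probe. The control signals were 177, 164, 179 and 173, within 1.09-fold of each other. The GALP signals were 133.5 and 113 in the greater loss pool and 122 and 79.2 in the less loss pool. All 8 channels were well above background, and the GALP and control signals did not overlap. The log2 ratios were -0.41 and -0.54 in the first pool and -0.56 and -1.13 in the second, with the lowest value from a single array. The mean was -0.66 ± 0.26 over the pools, with folds of 0.721 and 0.558. The spread between the pools was wider than for Sucnr1, the array p was below 0.01 on 1 array, and the limma adjusted p was 0.504. The size depended on the processing, since the mean was -0.16 after normexp and loess.

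The 3 genes whose 4 ratios lay nearest to those of Avpr1a, by Euclidean distance over 4 arrays among 10649 genes with signal in all channels, were Mup4 (distance 0.215), Tuba1c (0.227) and Fcmr (0.239). Mup4 is a major urinary protein gene of a family of near-identical copies, so its probe may read several of them.

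Adra1b, the α1-adrenergic receptor of hepatocytes, was lower on all 4 arrays by a smaller amount. The log2 ratios were -0.40 and -0.24 in the greater loss pool and -0.15 and -0.16 in the less loss pool, with a mean of -0.24 ± 0.12 that was -0.14 after normexp and loess. The GALP signals ran from 759 to 902 and the control signals from 897 to 1124, so the groups overlapped. The array p was below 0.01 on 0 of 4 arrays, and the limma adjusted p was 0.549. The other Adra1b probe (base 1051) was at background in all channels, with signals of 8.76 to 28.7, and gave no ratio to set beside it.

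Gcgr, the glucagon receptor, was bright in every channel and did not move one way. Its single probe was annotated only to an Ensembl transcript and to 0 RefSeq mRNAs. Its GALP signals ran from 10792 to 15390 and its control signals from 11752 to 15447. The log2 ratios were 0.09 and -0.12 in the greater loss pool and 0.10 and -0.20 in the less loss pool, so the sign changed with the dye in both pools. The mean over pools, in which a dye effect cancels, was -0.03 ± 0.02, with folds of 0.987 and 0.966. The limma adjusted p was 0.685. The difference between the dye orientations of a pool was 0.21 and 0.29 on the log2 scale, several times the mean.

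**Figure D2:**
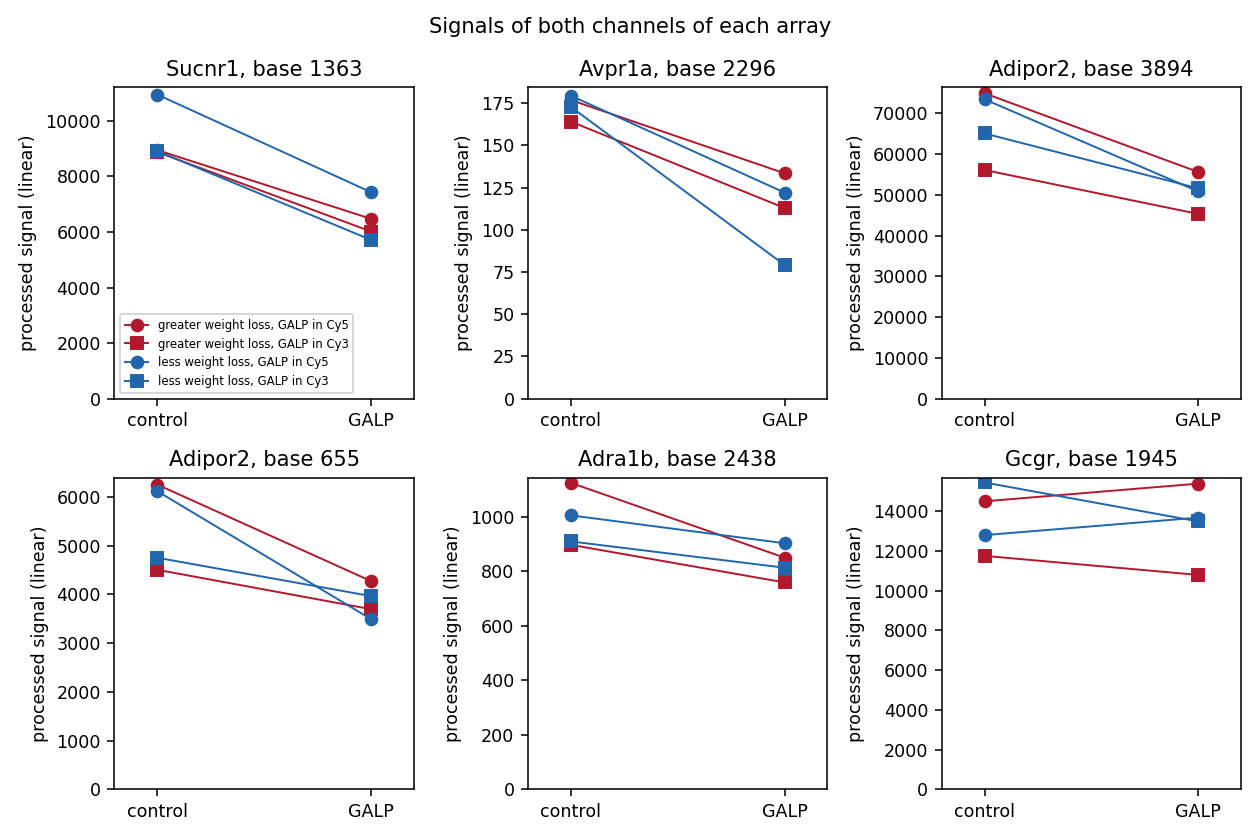
Processed signal (linear scale from 0) in the control and GALP channel of each array for 6 receptor probes, with a line for each array, coloured by pool and shaped by dye. All 4 lines slope down for Sucnr1, Avpr1a, Adipor2 (both probes) and Adra1b, and those for Gcgr slope up with GALP in Cy5 and down with GALP in Cy3.

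Between the adiponectin receptors, Adipor2 was lower on all 4 arrays and Adipor1 was not. At base 3894 of Adipor2 the GALP signals were 55605, 45322, 50838 and 51600, and the control signals were 74931, 56106, 73449 and 65073. The log2 ratios were -0.43 and -0.31 in the greater loss pool and -0.53 and -0.33 in the less loss pool, with a mean of -0.40 ± 0.04 and folds of 0.774 and 0.741. No GALP signal reached a control signal, although the gap between the highest GALP and the lowest control signal was small, and the first fold did not pass the limit of 0.75.

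At base 655 of Adipor2, upstream on the transcript, the log2 ratios were -0.55 and -0.29 in the greater loss pool and -0.81 and -0.26 in the less loss pool. The GALP signals were 3495 to 4275 and the control signals 4507 to 6256. The mean was -0.48 ± 0.08, with folds of 0.749 and 0.690, and the array p was below 0.01 on 2 arrays, both with GALP in Cy5. Both probes thus gave the same direction on each array, with the larger ratios in size when GALP was in Cy5. With limma the adjusted p was 0.374 at base 3894 and 0.386 at base 655. After normexp and loess both passed, with limma adjusted p of 0.0328 each and mean log2 ratios of -0.54 and -0.57, while with the pool as a random block neither did. The remaining probe (base 1361), annotated only to an Ensembl transcript, was at background in all channels.

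Adipor1 had 3 probes, all well above background in the 8 channels. At base 1829, the brightest, the log2 ratios were -0.11 and 0.08 in the greater loss pool and 0.07 and -0.19 in the less loss pool, with a mean of -0.04 ± 0.03 that was -0.17 after normexp and loess. The means at the other probes were 0.08 ± 0.11 (base 691) and -0.05 ± 0.01 (base 2937). None of the 3 was on 1 side of 0 on all 4 arrays. The limma adjusted p ran from 0.510 to 0.704. The difference between Adipor1 and Adipor2 was not tested.

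Lepr, the leptin receptor, was not measured. The probe at base 3013 was printed at 10 spots, and 0 of 80 spot readings over both channels of the 4 arrays were well above background. Its mean signals were 6.96 to 18.6 in the GALP channels and 9.44 to 17.8 in the control channels. At base 4251 the ratios were 1.09 and -0.55 in the greater loss pool and 0.53 and 0.00 in the less loss pool, at background in all 8 channels. This probe had an unadjusted limma p of 0.00444 with pool means of 0.27 and 0.26, close together although its arrays were not. No level of Lepr, and no direction, was detectable at this signal.

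Prlr, the prolactin receptor, gave 3 different patterns at its 3 probes. At base 1425, which all 3 RefSeq mRNAs share, the log2 ratios were 0.17, -0.19, 0.05 and 0.04, with a mean of 0.02 ± 0.04 and a limma adjusted p of 0.862. GALP signals of 1274 to 1900 overlapped control signals of 1458 to 1702. At this probe any difference between the groups was within the spread between arrays.

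At base 6561, on NM_011169 alone, the pools ran in opposite directions. The log2 ratios were -0.04 and -0.50 in the greater loss pool and 0.13 and 0.52 in the less loss pool. The pool means were -0.27 and 0.32, and such opposite signs on both arrays of each pool were seen in 5.81% of the probes with signal. At base 10099, also on NM_011169 alone, all 4 arrays were lower, with log2 ratios of -0.64, -0.30, -0.70 and -0.55 and a mean of -0.55 ± 0.11. The array p was below 0.01 on 2 arrays and the limma adjusted p was 0.401. This probe was dim and uneven between arrays. Its control signals were 206, 65.2, 450 and 70.1, although the same control pool was on every array, a 6.90-fold range against a median of 1.30 over all probes measured in 8 channels and a 95th percentile of 1.97. Of its GALP channels 3 of 4 were well above background, and its mean after normexp and loess was -0.18. The 3 probes of Prlr therefore gave no common direction for the gene.

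Thrb, the thyroid hormone receptor, had 3 probes with signal. At base 4280, the brightest, the log2 ratios were -0.12 and -0.10 in the greater loss pool and 0.09 and -0.17 in the less loss pool, with a mean of -0.07 ± 0.05 and a limma adjusted p of 0.652. At base 4912 all 4 arrays were below 0, at -0.40, -0.06, -0.34 and -0.09. The mean there was -0.22 ± 0.01, and it was -0.06 after normexp and loess, and the arrays with GALP in Cy5 had the larger values. The limma adjusted p was 0.374.

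At base 1701 of Thrb the pools again differed in sign, with -0.65 and -0.70 in the greater loss pool and 0.08 and 0.35 in the less loss pool. Transcripts of pancreas had the same signs in the pools, and their part in this and in the Prlr probe at base 6561 was not tested. The control signals of this probe were 196, 61.6, 50.2 and 165, a 3.91-fold range for the same pool. The probe at base 407, annotated to NM_009380 alone, was at background in all channels. Over the probes of Thrb with signal, the mean log2 ratio lay below 0 at each, and 1 of 3 was lower on all 4 arrays.

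The receptors showed mostly small differences between the pools. Among the probes with signal, the largest were 0.88 for Thrb at base 1701 and 0.60 for Prlr at base 6561, where the pools had opposite signs. The difference between the pool means was 0.09 for Sucnr1, 0.06 for Adipor2 at base 3894, 0.12 at base 655, 0.16 for Adra1b, 0.03 for Gcgr and 0.37 for Avpr1a on the log2 scale. For Avpr1a the difference between the dye orientations of the less loss pool was 0.57, larger than that between the pools. Each pool is 1 sample, so no difference between greater and less weight loss could be tested.

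**Figure D3:**
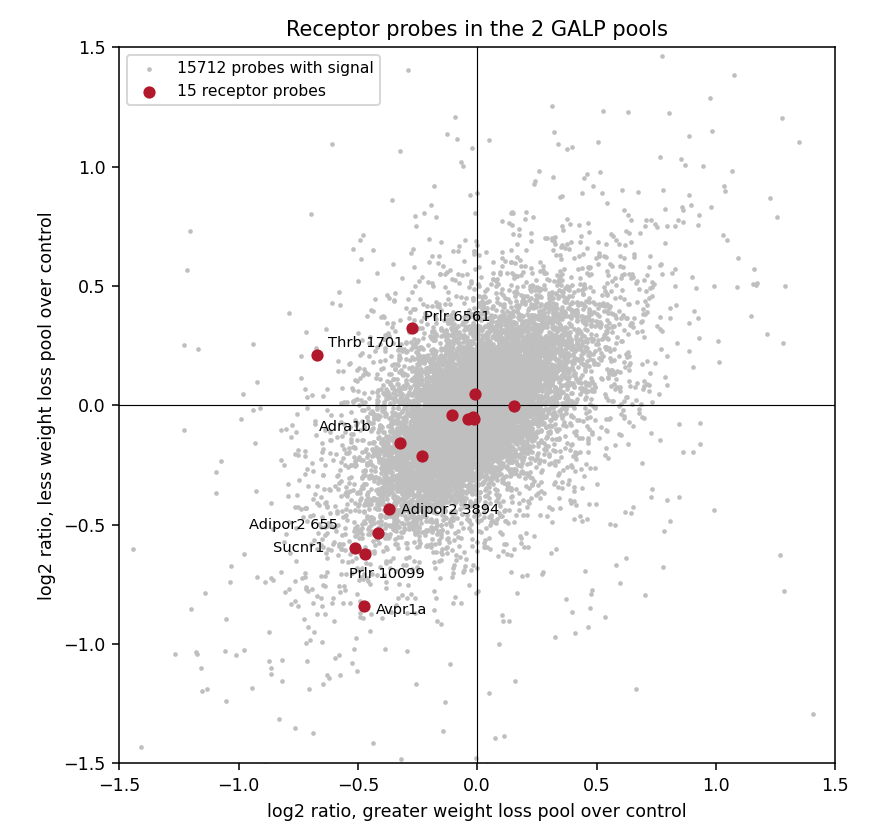
Mean log2 ratio over control of the greater loss pool (horizontal axis) and the less loss pool (vertical axis) for 15712 probes with signal (grey; 115 lie outside the axes) and the 15 receptor probes with signal (red). Both pools share the control pool. Sucnr1, Avpr1a, Adipor2 and Prlr 10099 lie low in both pools, and Prlr 6561 and Thrb 1701 are low in the greater loss pool and high in the other.

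The genes that act after these receptors were counted from lists chosen by function. In the 8 lists, which hold receptors of other hormones, galanin receptors and 6 signalling arms, 0 genes were called higher and 0 lower by the rule. The other hormone and transmitter receptors (16 of 35 with signal) had a median log2 ratio of 0.03. Of them 1 gene was lower and 6 higher on all 4 arrays, where the 8 receptors above had 4 and 0. Over all genes 14.5% were lower and 12.8% higher. Over all 31 probes with signal of this list the median was -0.08, with 5 lower and 7 higher, where the 15 receptor probes had -0.22, 7 and 0. Among them were Il6ra, the interleukin-6 receptor (0.59 ± 0.16), P2ry1, a purinergic receptor (0.47 ± 0.03), and Insr, the insulin receptor (0.14 ± 0.03), each above 0 on all 4 arrays with limma adjusted p of 0.429, 0.374 and 0.414. Il6ra was dim and had 0.15 after normexp and loess. Ghr, the growth hormone receptor, had -0.09 ± 0.11. The galanin receptors were not measured. Galr1 and Galr2 were at background in all 8 channels, and Galr3 was above background in 2 GALP channels and 1 control channel.

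In the glucagon and cAMP arm (20 of 23 genes with signal) 7 genes were lower and 3 higher on all 4 arrays. Over all genes 14.5% were lower and 12.8% higher, and the arm had a median of -0.04. G6pc, the catalytic subunit of glucose-6-phosphatase and a target of glucagon, had -0.55 and -0.33 in the greater loss pool and -0.39 and -0.38 in the less loss pool, a mean of -0.41 ± 0.03. Pde4b, a phosphodiesterase that breaks down cAMP, had -0.91, -0.70, -0.78 and -0.79, a mean of -0.79 ± 0.02. Its array p was below 0.01 on 3 arrays, but its mean was -0.15 after normexp and loess. The paper lists Pde4b among its genes with decreased expression. Ppargc1a, a coactivator induced by cAMP, had -0.43 and -0.11 in the greater loss pool and -0.05 and -0.53 in the less loss pool. Its mean was -0.28 ± 0.01, and -0.13 after normexp and loess. The pool means were close together although the arrays within a pool were not. G6pc, Pde4b and Ppargc1a were below 0 on every array while the receptor Gcgr was not. None of them passed the test, with a limma adjusted p of 0.374 for each. The 3 genes higher on all 4 arrays were Foxo1 (0.35 ± 0.08), Sds (0.25 ± 0.19) and Ramp2 (0.24 ± 0.02). Their limma adjusted p ran from 0.374 to 0.676, and the genes of the arm did not move one way.

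In the calcium and phosphoinositide arm, that of Adra1b and Avpr1a, 4 of 25 measured genes were lower and 4 higher on all 4 arrays, with a median of 0.00. Itpr1, a calcium release channel opened by inositol trisphosphate, had 0.30 ± 0.02. Rgs2, an inhibitor of Gq signalling, had 0.37 ± 0.21 with 1 array below 0. Pygl, the liver glycogen phosphorylase, had -0.21 ± 0.03. These counts were equal on both sides, beside 14.5% lower and 12.8% higher over all genes.

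In the JAK-STAT arm of leptin and prolactin 1 of 18 measured genes was lower and 2 higher on all 4 arrays. The shares over all genes were 14.5% and 12.8%, and the arm had a median of -0.02. Socs2, a feedback inhibitor induced by STAT5, had 0.32 ± 0.29, and Socs3, the feedback inhibitor of leptin signalling, had -0.07 ± 0.05. Cish, another STAT5 target, differed between the pools, with -0.15 in the greater loss pool and 0.69 in the less loss pool. Irs1, an adaptor of insulin signalling, had -0.34 ± 0.13. Lep itself was at background in all channels.

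In the adiponectin and AMPK arm 5 of 23 measured genes were lower and 3 higher on all 4 arrays, beside 14.5% and 12.8% over all genes. The median was -0.03. Paqr9, a relative of the adiponectin receptors, had -0.47, -0.42, -0.48 and -0.36, a mean of -0.43 ± 0.02, near that of Adipor2, with a limma adjusted p of 0.374. Acaca, acetyl-CoA carboxylase and a substrate of AMPK, had -0.31 ± 0.28, with the lower values in the less loss pool.

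In the thyroid hormone arm 7 of 23 measured genes were lower and 3 higher on all 4 arrays, beside 14.5% and 12.8% over all genes. The median was -0.06. Both lipogenic targets named, Thrsp (-0.37 ± 0.07) and Me1, malic enzyme (-0.41 ± 0.07), were below 0 on all 4 arrays. The paper names Me1 among the fatty acid synthesis genes with decreased expression. Dio1, the deiodinase of liver, had -0.22 ± 0.07, Thra, the other thyroid hormone receptor, had -0.13 ± 0.15, and Slc16a10, a transporter of aromatic amino acids and thyroid hormone, had 0.42 ± 0.19. The limma adjusted p of these genes ran from 0.387 to 0.702.

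In the succinate arm, that of Sucnr1, 2 of 14 measured genes were lower and 1 higher on all 4 arrays. Over all genes the shares were 14.5% and 12.8%, and the median of the arm was -0.01. The genes with lower values were Slc16a1, the monocarboxylate transporter that also carries succinate (-0.50 ± 0.07), and Gnai1, an inhibitory G protein subunit (-0.27 ± 0.08). The subunits of succinate dehydrogenase, Sdha, Sdhb, Sdhc and Sdhd, had means of -0.02, 0.01, 0.05 and -0.07. The gene higher on all 4 arrays was Acod1, the enzyme that makes itaconate, an inhibitor of succinate dehydrogenase, with log2 ratios of 0.98, 0.85, 0.37 and 0.61. Its mean was 0.70 ± 0.30, with 2 of 4 control channels above background and an array p below 0.01 on 2 arrays. The limma adjusted p was 0.374 for Slc16a1, 0.451 for Gnai1 and 0.520 for Acod1.

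Several of these sizes depended on the processing. Normexp and loess changed the background correction and the dye normalization together, and their parts were not separated. After normexp and loess the mean log2 ratio was -0.06 for Gnai1, 0.17 for Slc16a10, -0.11 for Acaca, -0.19 for Irs1, -0.14 for Pygl and for Dio1, -0.03 for Ghr and -0.02 for Thra, each nearer to 0 than above. For G6pc, P2ry1, Paqr9, Thrsp, Me1 and Slc16a1 it stayed within 1.5-fold.

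**Figure D4:**
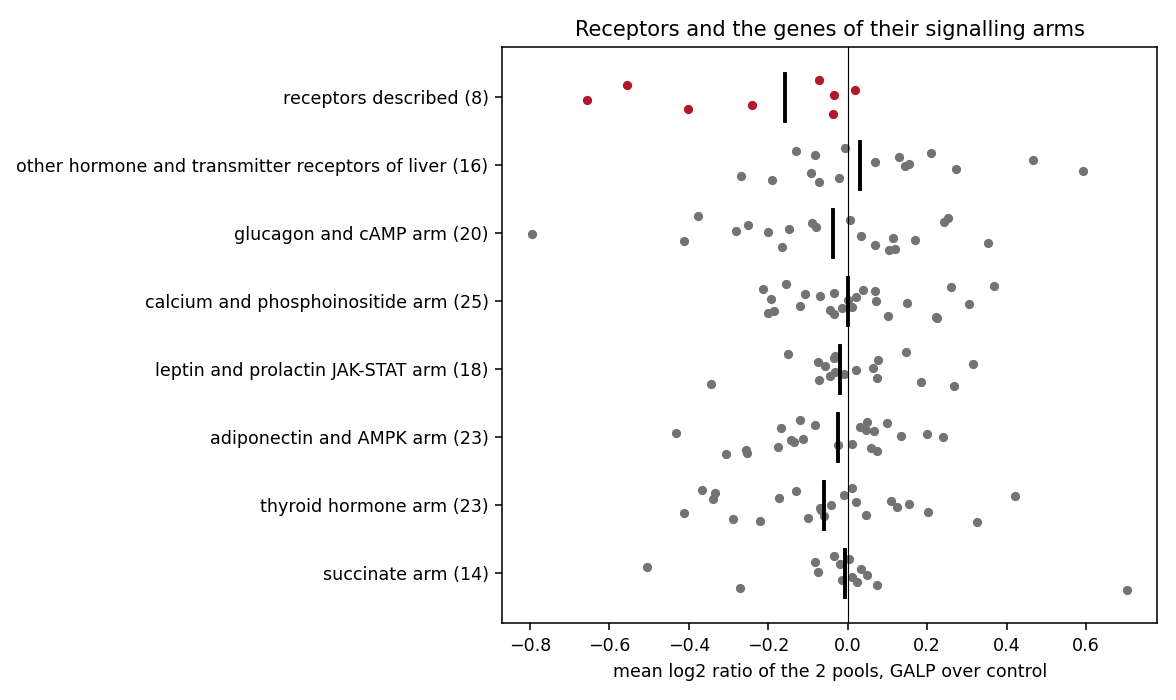
Mean log2 ratio of the 2 pools for 1 probe of each gene with signal, in the receptors described (red) and in the lists of other receptors and of signalling arms (grey), with the number of genes in brackets and the list median as a black bar. The receptor median is -0.16 and the medians of the other lists lie between -0.06 and 0.03.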

How the data were processed

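The authors scanned 4 dual-colour Agilent arrays of 1 slide. Feature Extraction (12.0.3.1 per the file headers, 11.0.1.1 per the labels) gave each spot a background-corrected, dye-normalized (LOWESS) processed signal intensity, a log10 ratio of Cy5 over Cy3 and a p-value from its error model. A deposited table of the whole series, tried as an alternative, repeats these log10 ratios with GALP as numerator.

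Ratios were converted to log2 with GALP over control, spots of a probe were averaged without those marked as outliers (232 to 319 spots of an array), and each pool's 2 arrays were then averaged as 1 sample. The paper describes 1 control pool, although by the labels the control channels too belong to a weight loss group, and it was treated as 1 sample on all arrays. GALP was tested against control with limma 3.58.1 in R 4.3.3 (lmFit and eBayes on 2 pool ratios against 0, Benjamini-Hochberg over 41037 probes, 1 residual degree of freedom). A probe had signal where, on each array, at least 1 channel stood well above background, and the probe with the highest mean signal stood for a gene. Precision is limited by how few arrays there are.

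The receptors, the lists and the tests were chosen with earlier results of these data known. Genes of the lists were named where called, where among the 2 largest in size with all channels above background, or where fixed by name. The exceptions, named with their values seen, are Acod1, Foxo1, Sds, Ramp2, the subunits of succinate dehydrogenase, Lep and the genes of the marker lists. Pck1 and Irs2 were not analysed here. Alternatives were normexp (offset 50) with loess, centring, other p, fold and signal rules, each dye, pool or array alone or left out, and other limma settings. On simulated data limma recovered 155 of 200 probes changed by 3 (log2) over 15712 probes with signal, with 4 false calls, and the rule recovered 200 of 200 changed by 1.5. Sequences and mm9 positions are those of the probes in the authors' files. Python 3.11.15, numpy 2.4.6, pandas 2.3.3, scipy 1.17.1, matplotlib 3.10.9 and data.table (version 1.17.8) were used.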

Additional observations from a re-analysis of the deposited data

Results flagged for a closer look

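At 2 of the 15 receptor probes with signal, both arrays of the greater loss pool ran one way and both arrays of the other pool the opposite way. Such opposite signs were seen in 5.81% of the 15712 probes with signal. The 2 probes were flagged among 40 values checked. The Prlr probe at base 6561 had a pool mean of -0.273 in the greater loss pool and 0.322 in the less loss pool. The Thrb probe at base 1701 had -0.673 and 0.211. With 1 pool per group neither difference was tested, and the other probes of these genes did not show it. Genes of pancreas had the same signs in the pools, and their part in these values was not tested.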

How the results depend on the processing

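At the probe that stood for each gene, the mean log2 ratios of Sucnr1, Avpr1a, Adipor2, Adra1b and Thrb stayed below 0 in every setting tried. All but Thrb were below 0 on every array, so their means over a dye, a pool or fewer arrays could not be otherwise. With 1 array or pool left out the means of these genes, in that order, ran from -0.60 to -0.51, -0.84 to -0.47, -0.45 to -0.35, -0.32 to -0.16 and -0.138 to -0.00873. Genes near 0 changed sign. Gcgr was 0.0910 with GALP in Cy5 alone and -0.107 to 0.0387 with an array or pool left out. Adipor1 was -0.101 to 0.0268 in the latter case and -0.168 after normexp and loess, and Prlr -0.0746 to 0.109, with -0.0423 after normexp and loess and -0.0781 with GALP in Cy3 alone. Of the other probes, Adipor1 at base 691 was -0.0104 after normexp, -0.0456 with GALP in Cy5 alone and -0.059 to 0.211 with arrays or pools left out. Adipor1 at base 2937 was 0.0384 after normexp, 0.0798 with GALP in Cy3 alone and -0.146 to 0.0538 with arrays or pools left out. Prlr at base 6561 was -0.0244 after normexp and -0.273 to 0.322 with arrays or pools left out, and Thrb at base 1701 was -0.673 to 0.211.

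The 0 receptors called lower became 3 when an array p below 0.01 was needed on only 1 array per pool, 4 with no array p and 1 (Sucnr1) in the less loss pool alone. The 0 probes past limma became 1 with the pool as a random block, whose consensus correlation was -0.39, and 3 after normexp and loess. The cause of these changes was not tested. The block fit took both dye-swapped arrays of a pool, which hold the same RNA, as values. The 4 receptors lower on all 4 arrays were 4 to 5 with an array left out. This count could not fall below 4, because fewer arrays then had to be lower. Each ratio already set GALP against control within 1 array. No further pairing of samples was possible because the replicate numbers only name the dye-swapped arrays of a pool. Dim probes (Avpr1a, Prlr base 10099, Thrb bases 1701 and 4912) limit what can be read, since little signal stood over background.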
